A study of Mus musculus with 12 samples.

Results

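The DNA replication genes described here are 47 genes taken from a given list of names. They cover origin licensing, the replicative helicase, the polymerases and the supply of deoxynucleotides. All 47 were in both deposited expression tables, which list 17866 genes for a knockdown experiment and 19390 genes for an immunoprecipitation experiment. Both experiments were made on mouse 2-cell embryos. The study asks what Eif1ad3, a relative of the translation initiation factor Eif1a, does while the embryo's own genome is first being transcribed.

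The control and knockdown groups have 2 libraries each, labelled A and B. Embryos came from CF1 mice, and the control group carries the genotype label WT and the knockdown group the label Eif1ad3_KD. The study's design text says that 1-cell embryos of the knockdown group received guide RNA with mRNA for RfxCas13d, an enzyme that cuts RNA, and that controls received the RfxCas13d mRNA without guide. The samples' own protocol instead names antisense morpholino oligos with Cas13d protein in oocytes, so the reagent is not settled by the labels. The design text names variants of Eif1ad3 as further targets. In the other experiment, mRNA for Eif1ad3-6xHis (200 ng/uL) was put into zygotes. At the 2-cell stage 200 cells per replicate were lysed and exposed to magnetic beads with anti-His antibody (His A and B) or with IgG (IgG A and B). Both of these groups carry the label Eif1ad3_OE, so the IgG libraries share the injected mRNA with the His libraries. The recovered RNA was sequenced (RIP-seq). No label says that the libraries A and B came from separate matings or injection days, so the p-values measure the spread between these libraries only, which may be technical.

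Replication starts where the origin recognition complex, with Cdc6 and Cdt1, loads the Mcm2-7 helicase onto DNA. Geminin (Gmnn) holds Cdt1 back, and the kinase Cdc7 with its partner Dbf4, together with Cdc45, the GINS complex and Mcm10, turns the loaded ring into a moving helicase. Polymerase alpha with primase then starts each strand, polymerases delta and epsilon extend it on the Pcna clamp, and Fen1 and Lig1 join the pieces of the lagging strand. Fertilised eggs and 2-cell embryos run their first S phases largely on proteins and mRNA stored in the oocyte. In cycling somatic cells many of these genes are transcribed together under the E2F factors.

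Promoter sequences show what these genes share outside their function. RefSeq promoters of build GRCm38.p6, from 250 bases before to 50 bases after each start, were found for 39 of the 47 genes. The E2F site was searched on both strands as the words TTTCCCGC, TTTCGCGC, TTTGCCGC and TTTGGCGC. It was present in at least 1 promoter of 14 of the 39 genes (35.9%), against 704 of 27025 genes in the whole promoter table (2.6%). The genes with a match were Orc1, Orc3, Cdc6, Cdt1, Mcm3, Mcm5, Mcm6, Mcm7, Gins3, Pola1, Pold1, Pole2, Rfc3 and Lig1. The CCAAT box, searched on both strands as CCAAT, was present in 23 of 39 (59%, against 41.1% of all genes). TATAAA, also on both strands, was present in 3 of 39 (7.69%, against 15.7%). The median GC content of the members' promoters was 60.2%, against 52.8% in the whole table, and the shares were not adjusted for it. The first 4 sequences are shown because they belong to licensing genes with the E2F word, and the last 2 because they belong to subunits of 1 complex, RPA, whose values in the knockdown lie on opposite sides of the controls. Each is the 250 bases before the start, 5′ to 3′ on the gene's strand. Capitals mark the E2F words in Mcm6 (chr1:128359706-128359955 on the minus strand), Mcm5 (chr8:75109259-75109508 on the plus strand), Cdc6 (chr11:98907901-98908150 on the plus strand) and Orc1 (chr4:108579204-108579453 on the plus strand), with overlapping matches run together. In Rpa2 (chr4:132768110-132768359 on the plus strand) and Rpa3 (chr6:8259142-8259391 on the minus strand) they mark the CCAAT box, which reads ATTGG where it lies on the other strand.
Mcm6: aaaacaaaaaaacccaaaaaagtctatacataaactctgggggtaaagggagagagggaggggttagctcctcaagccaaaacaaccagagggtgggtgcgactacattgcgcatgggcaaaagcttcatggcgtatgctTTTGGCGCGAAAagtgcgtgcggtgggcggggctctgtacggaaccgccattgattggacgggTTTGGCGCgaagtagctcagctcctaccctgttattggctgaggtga
Mcm5: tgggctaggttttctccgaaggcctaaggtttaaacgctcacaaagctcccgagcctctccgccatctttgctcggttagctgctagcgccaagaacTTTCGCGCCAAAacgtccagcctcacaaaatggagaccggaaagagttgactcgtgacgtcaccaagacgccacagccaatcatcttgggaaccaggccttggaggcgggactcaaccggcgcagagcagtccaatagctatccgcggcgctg
Cdc6: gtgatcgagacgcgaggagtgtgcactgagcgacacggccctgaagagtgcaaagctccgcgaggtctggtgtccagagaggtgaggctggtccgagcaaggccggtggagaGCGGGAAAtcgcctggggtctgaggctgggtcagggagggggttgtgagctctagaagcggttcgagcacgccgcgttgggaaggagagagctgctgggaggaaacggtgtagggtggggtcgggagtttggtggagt
Orc1: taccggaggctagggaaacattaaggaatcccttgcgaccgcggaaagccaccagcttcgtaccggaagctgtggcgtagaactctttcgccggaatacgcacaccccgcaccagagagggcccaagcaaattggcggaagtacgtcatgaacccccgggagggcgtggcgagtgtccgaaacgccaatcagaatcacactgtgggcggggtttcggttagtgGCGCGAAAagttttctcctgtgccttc
Rpa2: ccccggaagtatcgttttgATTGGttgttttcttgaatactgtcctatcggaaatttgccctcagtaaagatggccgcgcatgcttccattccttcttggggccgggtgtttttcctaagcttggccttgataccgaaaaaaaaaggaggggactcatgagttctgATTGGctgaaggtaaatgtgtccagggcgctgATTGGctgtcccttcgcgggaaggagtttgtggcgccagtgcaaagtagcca
Rpa3: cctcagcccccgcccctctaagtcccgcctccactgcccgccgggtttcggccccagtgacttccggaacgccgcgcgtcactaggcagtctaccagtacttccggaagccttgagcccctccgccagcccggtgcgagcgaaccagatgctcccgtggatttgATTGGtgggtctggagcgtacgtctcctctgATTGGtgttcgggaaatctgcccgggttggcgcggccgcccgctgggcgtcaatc
Mcm6 held 3 matches, Mcm5 held 2, and Cdc6 and Orc1 held 1 each. Rpa2 held 3 CCAAT boxes and Rpa3 held 2. A match describes the letters only.

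All levels are in CPM, a gene's reads after scaling every library to the same total. Read totals were 18173916 to 27902514 in the control and knockdown libraries, 7917501 and 8364126 in His, and 4678563 and 5925209 in IgG. Eif1ad3 itself, which belongs to a family of similar copies that counting could split, stood at 839 and 663 CPM in the controls and 277 and 377 CPM in the knockdown, a mean of 43.5% of the control (limma, log2 fold change -1.21 ± 0.33 (SE), adjusted p = 0.859). All 14 markers of the 2-cell stage and all 11 oocyte-expressed markers were listed in the knockdown table, and cumulus or granulosa markers (6 of 12 listed) summed to 7.92 to 15.2 CPM. Replicates were alike across genes in the controls (Pearson correlation of log2 values across genes, which are not independent replicates, 0.96), less so in the knockdown (0.91) and His (0.90), and least in IgG (0.47). In the IgG libraries 5148 and 5564 genes reached 1 CPM, against 12246 and 12270 in His. Eif1ad3 itself was at 80.3 and 83.6 CPM in His and 1.35 and 30.8 CPM in IgG. These embryos had received Eif1ad3-6xHis mRNA, so reads of the injected and the embryo's own mRNA are not separated.

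The first question is whether the mRNA of the replication genes differed in embryos with less Eif1ad3. No member passed the test. Of the 47 genes, 45 were tested, meaning that they reached at least 1 CPM in at least 2 of the 4 libraries. With limma on log2(CPM + 1) and Benjamini-Hochberg adjustment over all 13332 genes tested, 0 of the 45 were below an adjusted p of 0.05 (smallest adjusted p among them 0.859), and so were 0% of all genes. At an unadjusted p under 0.05 there were 2 of the 45 (4.44%, against 5.45% of all genes), Rpa2 on the lower side and Tyms on the higher side. edgeR's quasi-likelihood test on the recovered reads gave 0 calls among the members and 0% of all genes (3 members at an unadjusted p under 0.05, 6.67%, against 5.69% of all genes). DESeq2 gave 0, against 0.113% of all genes (4 members at an unadjusted p under 0.05, 8.89%, against 7.72%). The median log2 fold change of the 45 was -0.12, against 0.02 for all genes, and 25 of 45 were below 0 (55.6%, against 48.7%). In 15 of 45 genes the control and knockdown libraries did not overlap (33.3%, against 36.5%). These were 7 with both knockdown libraries higher (15.6%, against 18.1%) and 8 with both lower (17.8%, against 18.4%). The summed level of all 47 genes was 7027 and 6956 CPM in the controls and 6528 and 6481 CPM in the knockdown. Abundant genes such as Gmnn and Dbf4 weigh most in this sum, and Orc4 gave 589 CPM of it in knockdown B. CPM are shares of each library's reads, so these sums do not give the amount of RNA per embryo.

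**Figure D1:**
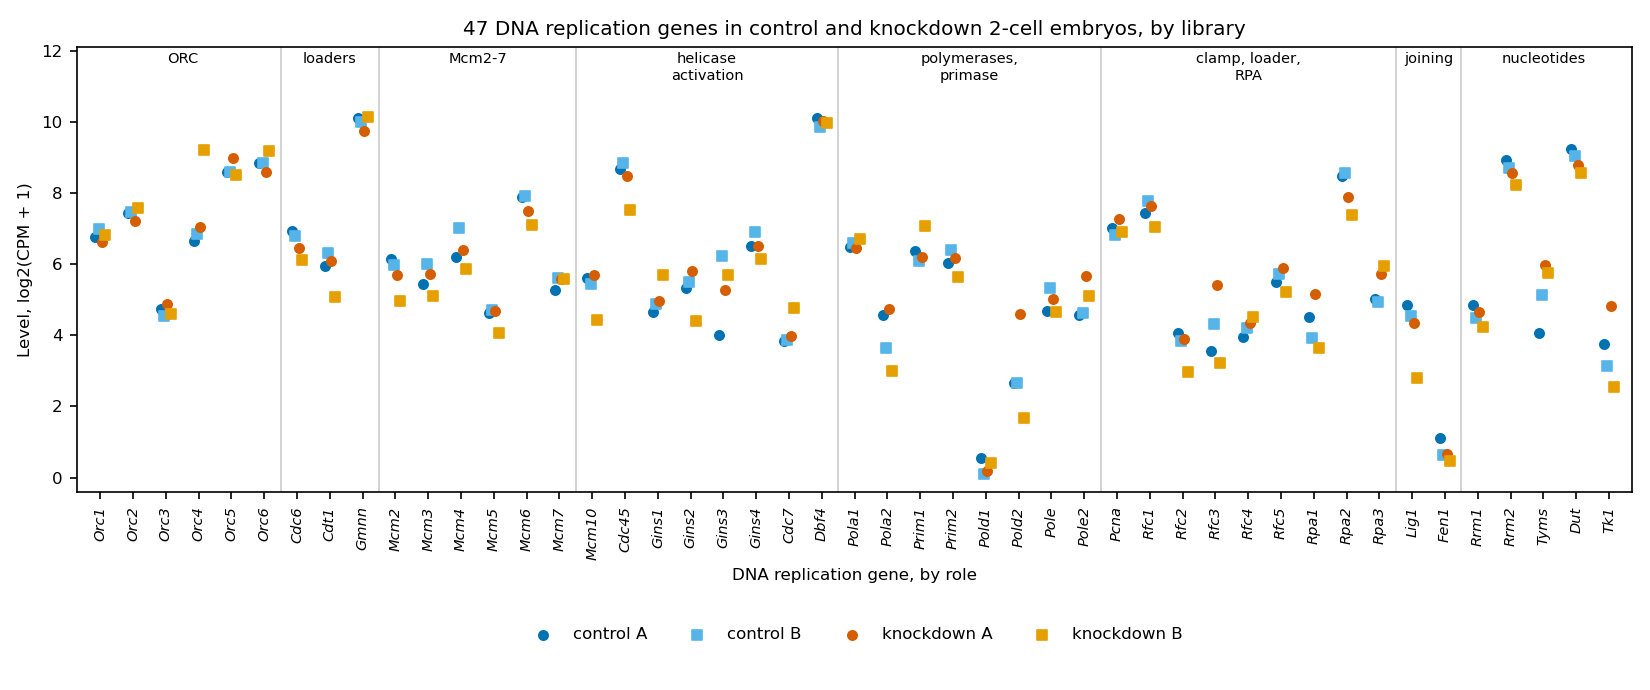
CPM of each DNA replication gene in control A and B and knockdown A and B, on a log axis, ordered by role. Points are single libraries; Orc4 in knockdown B (589 CPM) stands apart from its other 3 libraries, and Pold1 and Fen1 lie near or below 1 CPM throughout.

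Within the origin recognition complex, the 6 subunits that mark replication origins, 5 had overlapping groups and 1 did not. Over all genes tested, 36.5% did not overlap. Orc4 stood at 99.7 and 115 CPM in controls A and B and at 131 and 589 CPM in knockdown A and B. Both knockdown values lie above both controls, and knockdown B is far above the other 3 libraries. The log2 fold change of 1.37 ± 0.63 (SE) was the highest of the 45 and had an adjusted p of 0.859 (limma). Orc6 was at 459 and 457 CPM in the controls and 387 and 574 CPM in the knockdown, and Orc5 at 383 and 384 and then 506 and 364 CPM. In both genes 1 knockdown library lies above the controls and 1 below. Orc1, Orc2 and Orc3 had log2 fold changes of -0.15, -0.07 and 0.10, with overlapping groups.

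The 3 genes of helicase loading lay below 0 in the fit, and 2 of 3 did without knockdown A. Cdc6, the ATPase that joins the origin complex, stood at 120.2 and 109 CPM in the controls and 86.3 and 68.2 CPM in the knockdown, without overlap (log2 fold change -0.57 ± 0.35, limma adjusted p 0.859). Cdt1, which brings the helicase, was at 60.3 and 78.4 CPM and then 66.5 and 32.5 CPM, with knockdown B alone below the controls. Gmnn, the Cdt1 inhibitor, was at 1107 and 1013 CPM and then 849 and 1119.7 CPM, with overlap. The log2 fold change of Gmnn was -0.12 ± 0.31, less than its standard error. Dbf4, the activating partner of Cdc7, was likewise at close values in both groups, with 1091 and 918 CPM in the controls and 1036 and 995 CPM in the knockdown, a log2 fold change of 0.02 ± 0.30.

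Of the 6 subunits of the Mcm2-7 ring, 5 had a log2 fold change below 0 (83.3%, against 48.7% of all genes) and the median was -0.40, with none below the threshold. These values moved with the library left out: without knockdown A the median was -0.69 with 5 of 6 below 0, and without knockdown B it was -0.10 with 3 of 6 below 0, Mcm3 and Mcm5 having turned. Without control A it was -0.61 with 6 of 6 below 0, and without control B it was -0.17. Mcm2 stood at 70.1 and 62.2 CPM in the controls and 50.6 and 30.4 CPM in the knockdown. Mcm6 was at 235 and 241 CPM and then 179 and 137 CPM. In these 2 genes both knockdown libraries lie below both controls, and their log2 fold changes were -0.73 ± 0.41 and -0.60 ± 0.33 (both limma adjusted p = 0.859). Mcm4 was at 72.3 and 127 CPM in the controls and 83.00 and 56.7 CPM in the knockdown, with controls that differ among themselves as much. Mcm3 and Mcm5 had log2 fold changes of -0.31 and -0.30, where knockdown A lies between the controls and knockdown B below them. Mcm7 went the other way in sign, at 37.3 and 47.8 CPM in the controls and 47.3 and 46.7 CPM in the knockdown (log2 fold change 0.15).

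Genes that activate the helicase lay on either side of 0, 4 of 8 each way (5 of 8 below 0 without knockdown A and 2 of 8 without knockdown B), with Dbf4 so near 0 that median rescaling turned its sign (-0.05). Cdc45, the factor that travels with the helicase, stood at 407 and 457 CPM in the controls and 357 and 182 CPM in the knockdown, without overlap (log2 fold change -0.76 ± 0.39, limma adjusted p 0.859). Gins1, a GINS subunit, was at 24.2 and 28.2 CPM and then 30.2 and 50.8 CPM (log2 fold change 0.57 ± 0.44), also without overlap, with both knockdown libraries higher. Its 3 partners in the same complex did not share that order. Gins2 was at 39.4 and 44.02 CPM in the controls and 55.5 and 20.1 CPM in the knockdown, on both sides of the controls. Gins4 was at 90.4 and 118 CPM and then 90.4 and 69.1 CPM. Gins3 had controls that were far apart, at 15.04 and 73.2 CPM, and knockdown values of 37.95 and 50.3 CPM between them. Cdc7, the kinase, was at 13.3 and 13.6 CPM and then 14.8 and 26.1 CPM, with both knockdown libraries higher, and Mcm10, a helicase-binding factor, at 47.8 and 42.8 CPM and then 50.9 and 20.7 CPM, with 1 knockdown library on each side.

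Of the 7 polymerase genes tested, 3 were below 0 (42.9%, against 48.7% of all genes), and 4 of 7 without knockdown A. Their median log2 fold change of 0.05 turned to -0.33 without knockdown A, and was 0.0253 without knockdown B and 0.22 and 0.17 without control A and control B. Pole2, the second subunit of polymerase epsilon, stood at 22.6 and 23.7 CPM in the controls and 49.9 and 33.6 CPM in the knockdown, with both knockdown libraries higher (log2 fold change 0.80 ± 0.43, limma adjusted p 0.859). Pole, the catalytic subunit of the same enzyme, was at 24.5 and 39.04 CPM and then 31.5 and 24.4 CPM, with overlap. Pold2, a subunit of polymerase delta, was at 5.36 and 5.26 CPM in the controls, 23.2 CPM in knockdown A and 2.201 CPM in knockdown B. The knockdown libraries of Pold2 thus lie far apart on either side of controls that nearly coincide. Pola2, of polymerase alpha, showed the same order less widely, at 22.7 and 11.5 CPM and then 25.6 and 6.99 CPM. Prim1, the catalytic primase subunit, had 81.7 and 66.8 CPM in the controls and 72.7 and 133 CPM in the knockdown, and Prim2 and Pola1 had log2 fold changes of -0.32 and 0.05. Pold1, the catalytic subunit of polymerase delta, was not tested, with 0.48 and 0.0803 CPM in the controls and 0.143 and 0.33 CPM in the knockdown.

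The clamp, its loader and the single-strand binding complex RPA held genes of 1 complex on opposite sides of the controls. Rpa2, a subunit of RPA, stood at 357 and 379.7 CPM in the controls and 237 and 167 CPM in the knockdown. Rpa3, its smallest partner, was at 31.5 and 29.5 CPM and then 51.4 and 60.9 CPM. Neither gene had overlapping groups, and the direction was opposite: the log2 fold change was -0.88 ± 0.33 for Rpa2 (unadjusted p = 0.0284 in limma) and 0.86 ± 0.39 for Rpa3 (unadjusted p = 0.0578 in limma), both with an adjusted p of 0.859. Rpa1, the DNA-binding subunit, was at 21.9 and 14.1 CPM in the controls and 34.7 and 11.4 CPM in the knockdown, with 1 knockdown library on each side. Pcna, the sliding clamp, was at 128 and 112 CPM and then 152 and 119.5 CPM, which overlap. Among the clamp loader genes, Rfc3 stood at 10.8 and 18.8 CPM in the controls and 41.5 and 8.36 CPM in the knockdown, again with knockdown A above the controls and knockdown B below. Rfc4 was at 14.6 and 17.5 CPM and then 19.1 and 21.6 CPM, with both knockdown libraries slightly higher. Rfc1, Rfc2 and Rfc5 had log2 fold changes of -0.26, -0.52 and -0.06, with overlapping groups.

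Lig1, the ligase that seals lagging-strand pieces, had the lowest log2 fold change of the 45. It stood at 27.8 and 22.5 CPM in the controls and 19.4 and 5.998 CPM in the knockdown, with both knockdown libraries lower (log2 fold change -1.12 ± 0.60, limma adjusted p 0.859). Fen1, the flap nuclease of the same step, was too low to test, at 1.16 and 0.562 CPM in the controls and 0.573 and 0.385 CPM in the knockdown. Among the nucleotide genes, Tyms, which makes thymidylate, was at 15.8 and 34.3 CPM and then 61.5 and 52.6 CPM. Both knockdown values of Tyms are above both controls, and its log2 fold change was 1.25 ± 0.48 (limma unadjusted p = 0.0298, adjusted p = 0.859). Dut, which removes dUTP, was at 605 and 528 CPM in the controls and 441 and 377 CPM in the knockdown. Rrm2, the regulated subunit of ribonucleotide reductase, was at 488 and 419 CPM and then 379 and 300.4 CPM. Both of these lie lower in the knockdown without overlap, with log2 fold changes of -0.47 ± 0.31 and -0.42 ± 0.32. Rrm1, the partner of Rrm2, was at 28.03 and 21.2 CPM and then 24.4 and 17.8 CPM, which overlap, and Tk1, thymidine kinase, was at 12.5 and 7.71 CPM in the controls, 27.1 CPM in knockdown A and 4.84 CPM in knockdown B.

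The 2 knockdown libraries differed for these genes. Against the control mean, the median member deviation on the log2 scale was 0.03 in knockdown A and -0.56 in knockdown B, where the medians over all tested genes were 0.14 and -0.17. Knockdown B was below knockdown A in 33 of 45 members (73.3%, against 62.5% of all genes), while control B was below control A in 19 of 45 (42.2%, against 45.3%). The replicates lay over 1 log2 unit apart in 10 of 45 members in the knockdown (22.2%, against 33% of all genes) and in 2 of 45 in the controls (4.44%, against 11.5%). Without knockdown A, with the lone knockdown B assumed to vary like the controls, 5 of 45 members passed the test (11.1%, against 9.38% of all genes). Orc4 was then higher (log2 fold change 2.45, limma adjusted p = 0.00352). Cdc45 (-1.24, 0.0113), Rpa2 (-1.13, 0.0141), Lig1 (-1.89, 0.029) and Mcm6 (-0.80, 0.0496) were then lower, each given with the log2 fold change and the limma adjusted p. Without knockdown B the log2 fold changes of these 5 genes were 0.29 (Orc4), -0.27 (Cdc45), -0.63 (Rpa2), -0.35 (Lig1) and -0.41 (Mcm6). In that fit 0 members passed (0.57% of all genes) and the median over the 45 turned from -0.12 to 0.0253. Oocyte-expressed markers also differed between the 2 knockdown libraries. Their sum over 11 genes was 15981 and 13096 CPM in the controls, 22214 CPM in knockdown A and 12816 CPM in knockdown B. The sum over 14 markers of the 2-cell stage was 7273 and 6932 CPM in the controls and 5128 and 5173 CPM in the knockdown. Their part in the members' values was not tested.

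**Figure D2:**
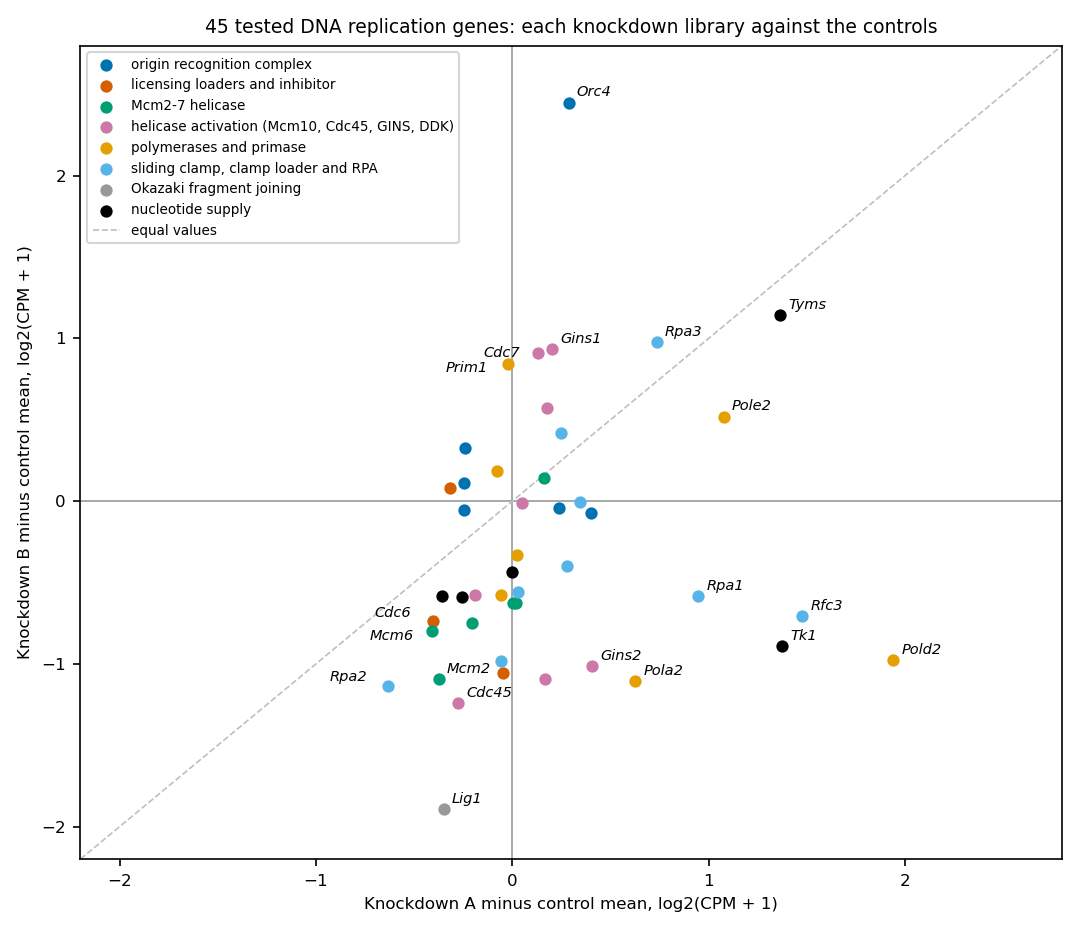
Log2(CPM + 1) in knockdown A minus the control mean (horizontal) and in knockdown B minus the control mean (vertical) for the 45 tested DNA replication genes, coloured by role; the dashed line marks equal values. Rpa2, Lig1 and Cdc45 lie below 0 on both axes, Tyms, Rpa3 and Pole2 above 0 on both, and Pold2, Rfc3, Tk1 and Rpa1 are above 0 in knockdown A and below 0 in knockdown B.

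A further 69 genes of the replication pathway were followed beside the members: E2F factors, S-phase kinases, fork protection, chromatin assembly and others. Of these, 66 were tested and 0 passed (3 at an unadjusted p under 0.05, 4.55%, against 5.45% of all genes), with 31 below 0 (47%, against 48.7%). Without knockdown A, 8 of the 66 passed (12.1%, against 9.38% of all genes), 3 higher and 5 lower. The median log2 fold change was 0.07, and with 1 library left out it was 0.0043 (control A), 0.11 (control B), -0.01 (knockdown A) or 0.17 (knockdown B). Ccne2, a cyclin that drives entry into S phase, stood at 52.2 and 77.3 CPM in the controls and 103 and 223 CPM in the knockdown (log2 fold change 1.24 ± 0.46). Ccne1, its close relative, was at 374 and 429 CPM and then 256 and 219 CPM (log2 fold change -0.76 ± 0.31). The cyclin pair thus lay on opposite sides of the controls, without overlap, and neither passed (both limma adjusted p = 0.859). Asf1a, a histone chaperone at the fork, was at 53.1 and 67.5 CPM in the controls and 152 and 112 CPM in the knockdown (log2 fold change 1.11 ± 0.37). Top2a, which untangles replicated DNA, was at 339 and 321 CPM and then 153 and 253 CPM (log2 fold change -0.74 ± 0.36), and Rrm2b and Shmt1 of nucleotide supply had log2 fold changes of 0.92 and -0.73. Neither these nor Asf1a and Top2a passed.

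The second question is which of these mRNAs were recovered with His-tagged Eif1ad3 above the IgG control. Of the 47 genes, 44 were tested, and 13 of them were higher in His at a limma adjusted p under 0.05 (29.5%, against 36.6% of the 11232 genes tested, or 35.7% counting higher genes alone). None of the 44 passed as lower, against 0.917% of all genes. The 13 were Orc2, Orc5, Cdc6, Mcm10, Pcna, Rfc3, Rpa1, Rpa2, Pold2, Pole, Pole2, Tyms and Tk1. Of these 13, 12 were under 1 CPM in both IgG libraries (92.3%, against 90.9% of all genes that passed as higher). Such genes met the filter of 1 CPM in 2 libraries only through His, so they could come out only higher, and their counts and p-values are given as a description. The exception was Orc5. The median log2 fold change of the 44 was 2.50, against 2.01 over all genes, and 31 of 44 were above 0 (70.5%, against 78.5%). The His and IgG libraries did not overlap in 25 of 44 members (56.8%, against 63.1%), 24 of them higher in His (54.5%, against 54.1%) and 1 lower (2.27%, against 9.06%). These counts include the 15 of 44 members under 1 CPM in both IgG libraries (34.1%, against 38.2% of all genes). Among the 29 members at 1 CPM or more in an IgG library, 1 passed as higher (3.45%, against 5.25% of all such genes) and 0 as lower (against 1.48%), 16 were above 0 (55.2%, against 65.3%), and the median log2 fold change was 0.09, against 0.72. With genes at 0 in IgG set to their lower bound the median was 2.68 over the 44 and 2.34 over all genes tested. The call rests on the method: edgeR's quasi-likelihood test on the recovered reads called 0 of 44 members and 0% of all genes (14 members at an unadjusted p under 0.05, 31.8%, against 40.9% of all genes; smallest adjusted p 0.0547). Quantile normalization called 0 of 44 members and 0% of all genes (5 members at an unadjusted p under 0.05, 11.4%, against 20.8%). DESeq2 called 20 of 44 (45.5%, against 49.1% of all genes), 18 higher (40.9%, against 42.4%) and 2 lower (4.55%, against 6.65%).

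**Figure D3:**
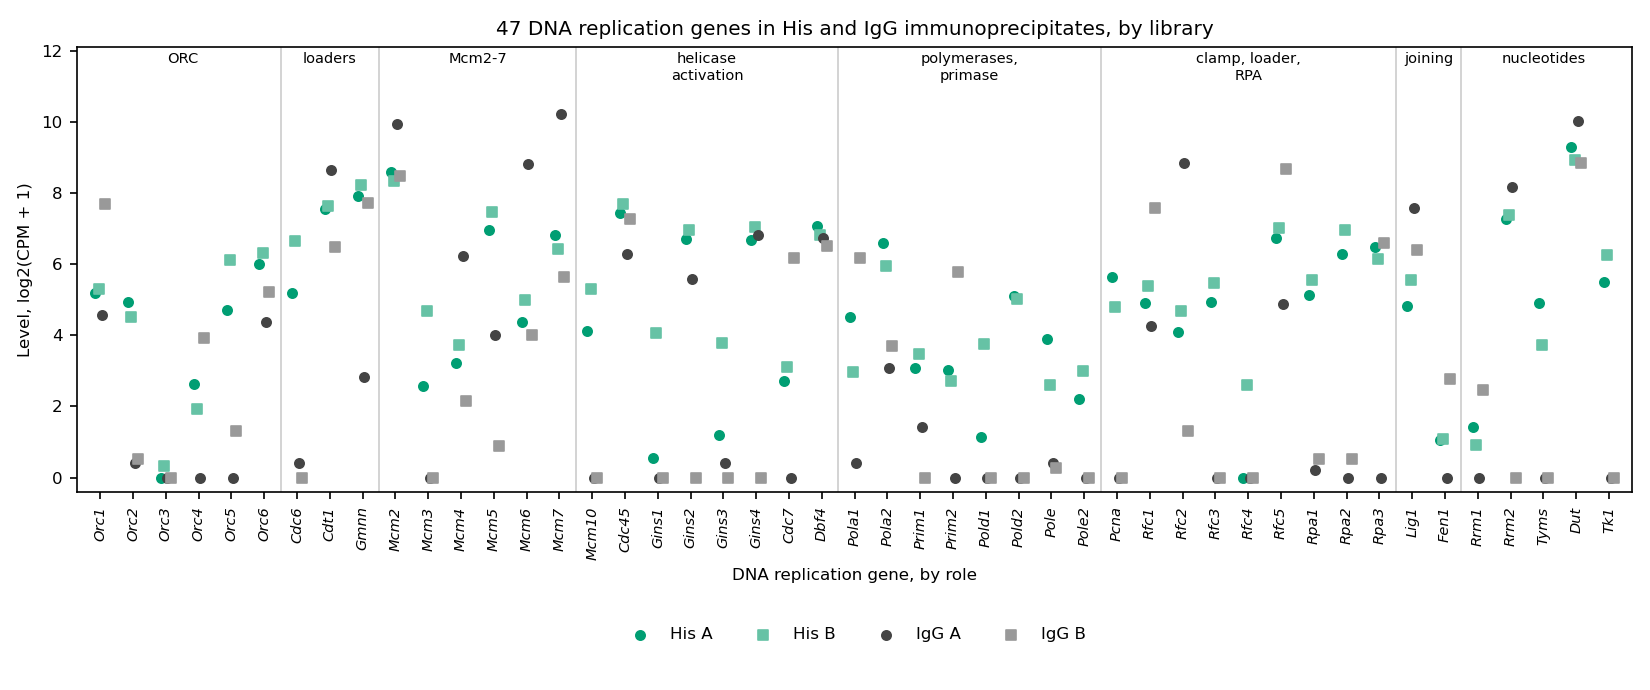
CPM of each DNA replication gene in His A and B and IgG A and B, ordered by role, on an axis of log2(CPM + 1). Points are single libraries; the His points lie over 1 log2 unit apart in 9 of the 44 tested genes, and in genes such as Mcm6, Rfc2 and Rrm2 the IgG points lie far apart.

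The IgG libraries held few reads for many members. Of the 47, 12 had 0 reads in both IgG libraries, 8 in IgG A only, 6 in IgG B only, and 21 had reads in both. Among the 44 tested, 9 had 0 reads in both (20.5%, against 28.2% of all genes), and with them 6 more were under 1 CPM in both. For all 15 being higher is fixed by the filter. Of the 13 that passed, 7 had 0 reads in both IgG libraries (53.8%, against 65.5% of all genes that passed) and the other 6 had at most 7 reads in the 2 together. Their highest IgG value was 1.496 CPM and their His values ran from 3.59 to 123 CPM. None of the 12 members at 10 CPM or more in all 4 libraries passed, against 4.79% of all genes at that level. Where IgG had no read, a lower bound on the fold of the His mean was set by 3 reads over the IgG group. Where the His libraries lie apart, the lower of them taken alone would give a smaller fold. Where it had 1 to 3 reads, the ratio of pooled CPM is given with an exact 95% counting interval. The fitted log2 fold change of such genes is set by the pseudocount and can lie below the bound: over the 13 genes it ran from 2.59 to 6.37 with the pseudocount of 1, from 4.51 to 9.18 with 0.1 and from 1.02 to 4.30 with 5. PCR copies were not marked by molecular identifiers, so bounds and intervals cover counting error only.

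Subunits of the origin recognition complex were recovered unevenly. Orc2 stood at 29.4 and 21.9 CPM in His A and B and at 0.338 and 0.427 CPM in IgG A and B, a log2 fold change of 4.25 ± 0.45 (limma adjusted p = 0.0102). Orc5 was at 25.3 and 68.96 CPM in His and 0 and 1.496 CPM in IgG (log2 fold change 4.76 ± 0.90, limma adjusted p 0.0308). In both genes each His library lies far above each IgG library. Orc6 was at 63.2 and 78.7 CPM in His and 19.6 and 36.1 CPM in IgG, also without overlap but short of the threshold (limma adjusted p = 0.362). Orc1 was at 35.4 and 38.3 CPM in His, 22.6 CPM in IgG A and 206 CPM in IgG B, so that the His values lie between the IgG values. Orc4 had 5.14 and 2.78 CPM in His, 0 in IgG A and 14.1 CPM in IgG B, the same order. Orc3 was nearly absent, with 0 and 0.253 CPM in His and 0 in IgG, and was not tested.

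Of the 3 loader and inhibitor genes, 1 passed the test (33.3%, against 36.6% of all genes), which was Cdc6. It stood at 35.2 and 99.02 CPM in His and 0.338 and 0 CPM in IgG, a pooled ratio of 351 (96.9 to 2902) and a log2 fold change of 5.70 ± 0.78 (limma adjusted p = 0.015). Cdt1 was at 187 and 199 CPM in His, 399.8 CPM in IgG A and 88.1 CPM in IgG B, which puts His between the control libraries. Gmnn was at 239 and 301 CPM in His, 6.08 CPM in IgG A and 209 CPM in IgG B. Both His values of Gmnn are above both IgG values, and the distance to IgG B is small beside the gap between the IgG libraries (limma adjusted p = 0.408).

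For most Mcm2-7 genes IgG A and IgG B were far apart. Mcm7 stood at 112 and 84.2 CPM in His, 1196 CPM in IgG A and 48.5 CPM in IgG B (log2 fold change -1.31 ± 1.85, limma adjusted p 0.691). Mcm6 was at 19.7 and 30.6 CPM in His, 447 CPM in IgG A and 15.2 CPM in IgG B (log2 fold change -1.73 ± 2.02, limma adjusted p 0.626). In both, IgG A is the highest library and IgG B the lowest. Mcm4 and Mcm2 had IgG A highest as well, with 8.25 and 12.3 CPM in His against 74.6 and 3.42 CPM in IgG for Mcm4, and 387 and 320.3 against 982 and 354 CPM for Mcm2. Mcm5 was at 123 and 176 CPM in His and 15.02 and 0.855 CPM in IgG, without overlap (log2 fold change 4.76 ± 1.46, limma adjusted p 0.093). Mcm3 was at 4.902 and 24.8 CPM in His and 0 in both IgG libraries. Its His mean was at least 52.4-fold higher, with a limma adjusted p of 0.0522. Of the ring 0 of 6 passed, against 36.6% of all genes. Against IgG A alone 6 of 6 passed, 2 higher and 4 lower (65% of all genes passed), and against IgG B alone Mcm3 and Mcm5 did (64.4%).

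Of the 7 activation genes tested, 1 passed (14.3%, against 36.6% of all genes), which was Mcm10. It stood at 16.4 and 38.8 CPM in His and at 0 in both IgG libraries, at least 97.5-fold higher (log2 fold change 4.72 ± 0.59, limma adjusted p 0.0127). Gins2 and Gins4 were steady in His and uneven in IgG, at 104 and 124 CPM in His against 46.6 and 0 CPM in IgG for Gins2, and 102 and 129.7 against 112 and 0 CPM for Gins4. Gins3 was at 1.32 and 12.9 CPM in His and 0.338 and 0 CPM in IgG, a pooled ratio of 36.8 (9.95 to 308), where the His libraries differ from each other, and Gins1, with 0.478 and 15.8 CPM in His and 0 in IgG, was not tested. Cdc7 was at 5.62 and 7.58 CPM in His, 0 in IgG A and 71.2 CPM in IgG B. Cdc45 and Dbf4 were among the members with reads in all 4 libraries: Cdc45 was at 173 and 204 CPM in His and 76.96 and 152 CPM in IgG, and Dbf4 at 134 and 112 CPM in His and 106 and 89.98 CPM in IgG. Both His libraries lie above both IgG libraries in each gene by less than the test needs (limma adjusted p 0.489 and 0.778), and the sign for Dbf4 turned with median rescaling (log2 fold change -0.09).

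Of the polymerase genes 3 of 8 passed (37.5%, against 36.6% of all genes), and for these 3 the filter fixed the direction. The median log2 fold change of the 8 was 2.58, and it ran from 2.28 to 2.85 with 1 library left out. Pold2 stood at 33.1 and 31.3 CPM in His and 0 in both IgG libraries, at least 114-fold higher (log2 fold change 5.05 ± 0.41, limma adjusted p 0.00997). Pole2 was at 3.59 and 6.95 CPM in His and 0 in IgG, at least 18.6-fold higher (limma adjusted p 0.0159), and Pole at 13.7 and 5.05 CPM in His and 0.338 and 0.214 CPM in IgG, a pooled ratio of 33.6 (11.3 to 165; limma adjusted p 0.0335). Under quantile normalization the log2 fold changes of Pole and Pole2 turned to -0.63 and -0.06, and those of Prim1, Pold1 and Pola1 to -0.74, -0.13 and -2.14. Pola2 was at 95.6 and 60.1 CPM in His and 7.43 and 11.97 CPM in IgG (limma adjusted p 0.0946), and Prim1 at 7.41 and 10.1 CPM in His and 1.69 and 0 CPM in IgG (limma adjusted p 0.0601). These groups do not overlap, without reaching the threshold. Pold1 was at 1.196 and 12.5 CPM in His, which lie far apart, and 0 in IgG. Its His mean was at least 24.2-fold higher (limma adjusted p 0.178). Pola1 and Prim2 had IgG B as the highest library, with 0.338 and 71.4 CPM in IgG against 21.8 and 6.82 CPM in His for Pola1, and 0 and 54.3 against 7.17 and 5.56 CPM for Prim2.

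Of the clamp, its loader and RPA 4 of 8 passed (50%, against 36.6% of all genes), and for these 4 the filter fixed the direction. The median log2 fold change of the 8 was 3.99, and it ran from 3.82 to 5.16 with 1 library left out. Pcna stood at 48.7 and 26.6 CPM in His and 0 in both IgG libraries, at least 133-fold higher (log2 fold change 5.21 ± 0.53, limma adjusted p 0.00997). Rfc3 was at 29.7 and 42.9 CPM in His and 0 in IgG, at least 128-fold higher (log2 fold change 5.20 ± 0.47, limma adjusted p 0.00997). These are the clamp and 1 subunit of its loader. Rpa2 was at 77.5 and 123 CPM in His and 0 and 0.427 CPM in IgG, a pooled ratio of 528 (146 to 4362) and a log2 fold change of 6.37 ± 0.69 (limma adjusted p = 0.0104). Rpa1 was at 33.95 and 45.97 CPM in His and 0.169 and 0.427 CPM in IgG, a ratio of 141 (47.9 to 684; log2 fold change 4.97 ± 0.52, limma adjusted p 0.01). The third RPA gene differed between the control libraries: Rpa3 was at 88.1 and 70.4 CPM in His, 0 in IgG A and 96.4 CPM in IgG B. Rfc2 was at 15.9 and 24.9 CPM in His, 461 CPM in IgG A and 1.496 CPM in IgG B. Rfc1 and Rfc5 had the reverse order, with 18.1 and 191 CPM in IgG A and B against 29.2 and 40.5 CPM in His for Rfc1, and 28.5 and 407 against 105 and 128 CPM for Rfc5. Rfc4 had 0 and 5.05 CPM in His and 0 in IgG and was not tested.

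Lig1 was the only member with both IgG libraries above both His libraries. It stood at 27.1 and 45.7 CPM in His and 190.03 and 84.00 CPM in IgG (log2 fold change -1.81 ± 0.92, limma adjusted p 0.249). Fen1 was low everywhere, at 1.08 and 1.14 CPM in His and 0 and 5.77 CPM in IgG. Of the nucleotide genes, Tk1 was at 44.6 and 75.02 CPM in His and 0 in both IgG libraries, at least 211-fold higher (log2 fold change 5.88 ± 0.57, limma adjusted p 0.00997). Tyms was at 29.2 and 12.1 CPM in His and 0 in IgG, at least 72.98-fold higher (log2 fold change 4.31 ± 0.57, limma adjusted p 0.0139). Tk1 and Tyms both supply thymidylate, Tk1 by salvage and Tyms by synthesis. Rrm2 was at 152 and 165 CPM in His, 286 CPM in IgG A and 0 in IgG B, and Rrm1 at 1.67 and 0.884 CPM in His and 0 and 4.49 CPM in IgG. Dut was at 624 and 482 CPM in His, 1031 CPM in IgG A and 461 CPM in IgG B, with IgG A the highest library and IgG B the lowest.

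The control libraries limited this comparison. The 2 IgG libraries lay over 1 log2 unit apart in 25 of 44 members (56.8%, against 49.7% of all genes), and the 2 His libraries in 9 of 44 (20.5%, against 24.9%). Exactly 1 IgG library was above both His libraries in 18 of the 44 (40.9%, against 31.4% of all genes). Against IgG B alone, 28 of 44 passed (63.6%, against 64.4% of all genes), 22 higher (50%, against 47.2%) and 6 lower (13.6%, against 17.2%). Against IgG A alone, 34 passed (77.3%, against 65%), 25 higher (56.8%, against 51%) and 9 lower (20.5%, against 14%). Against each library taken alone 17 passed as higher (38.6%, against 34.3% of all genes), of which 13 were under 1 CPM in both IgG libraries, where the filter fixed the direction (76.5%, as over all genes). For genes with 0 reads in both IgG libraries these fits give the same fold change by construction. The sign was opposite in 17 of 44 members (38.6%, against 32.9%). Cdt1, Cdc7, Pola1, Prim2, Rfc2, Rfc5 and Rrm2 passed in opposite directions, 7 of 44 (15.9%, against 12.9%). Rrm2, for example, had a log2 fold change of 7.32 against IgG B and -0.85 against IgG A. In these fits the lone IgG library is assumed to vary like the His libraries. Without His A, 15 of 44 passed (34.1%, against 35.2% of all genes), and without His B 14 passed (31.8%, against 35.1%). In both cases 12 of the 13 were among them and Orc5 was lost. With a replicate block 14 of 44 passed (31.8%, against 34.7%).

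**Figure D4:**
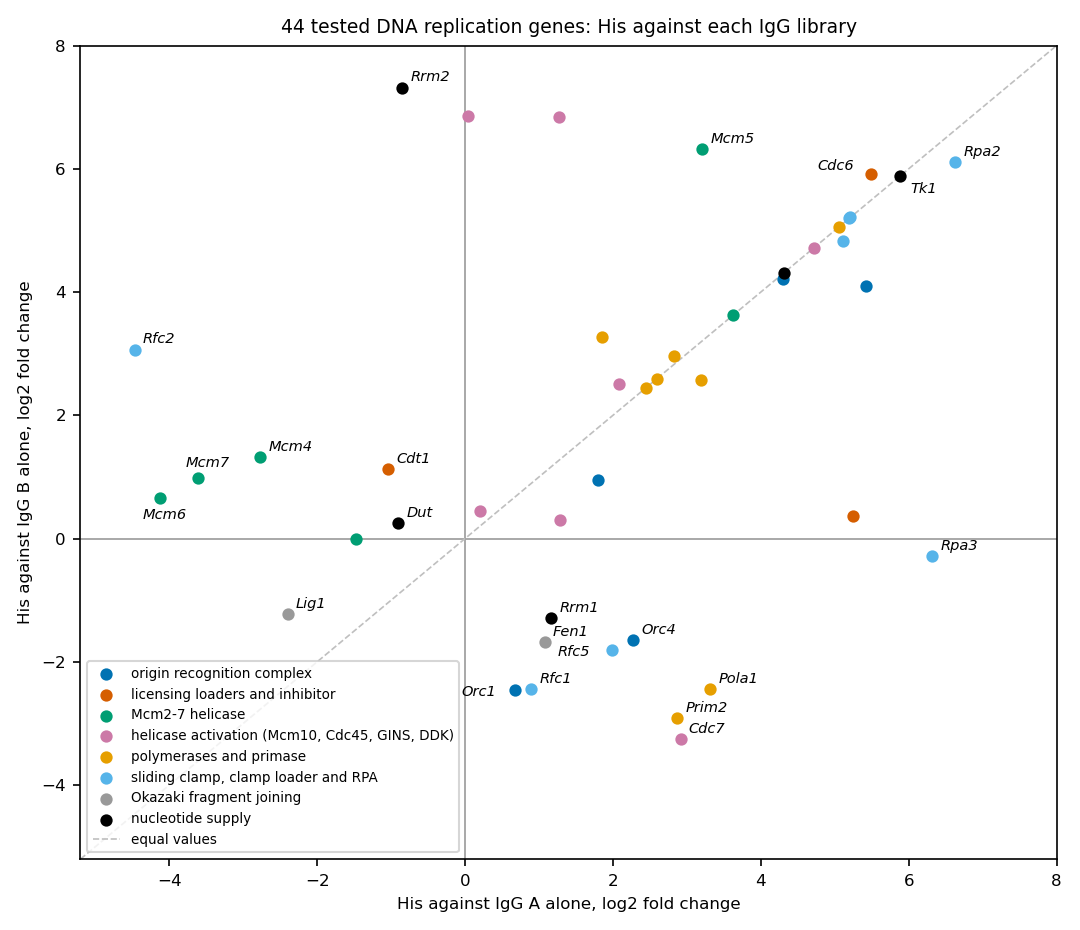
Log2 fold change of His against IgG A alone (horizontal) and against IgG B alone (vertical) for the 44 tested DNA replication genes, coloured by role; the dashed line marks equal values. Tk1, Rpa2 and Cdc6 lie at the upper right on both axes, while Rrm2, Rfc2, Mcm6 and Mcm7 are negative against IgG A and positive against IgG B, and Cdc7, Prim2 and Pola1 are the reverse.

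Marker levels are given beside these values, and 35.7% of all genes passed as higher. The 14 markers of the 2-cell stage summed to 1498 and 1483 CPM in His and 720 and 791 CPM in IgG, with 8 of 14 at 0 in IgG A and 3 of 14 at 0 in IgG B, and 7 of the 13 tested passed as higher (53.8%), 6 of them under 1 CPM in both IgG libraries. In IgG A, Tcstv3 alone held 716.6 CPM, and it stood at 397 and 423 CPM in His and 207 CPM in IgG B. The 11 oocyte-expressed markers summed to 15880.3 and 15885 CPM in His and 5629 and 6933 CPM in IgG, with 1 at 0 in each IgG library. Of these 4 passed as higher (36.4%) and 1 as lower, which was Ooep (log2 fold change -0.69, limma adjusted p = 0.0443), and Zp3 was lower without overlap (-1.04, limma adjusted p = 0.252).

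Markers of other cells were also listed. Of the 5 blood markers 3 were listed, and they summed to 76.9 and 94.1 CPM in His and 0 in both IgG libraries. Hba-a1, a haemoglobin chain of red cells, was at 52.6 and 64.8 CPM in His, and Cd68, a macrophage protein, at 24.3 and 29.05 CPM, and both passed as higher (limma adjusted p = 0.00997), a direction fixed by the filter. The 8 blastocyst markers summed to 106 and 70.6 CPM in His, 116 CPM in IgG A, all of it Sox17, and 1.07 CPM in IgG B. Gata3, Krt8, Krt18 and Gata6 passed as higher, 4 of the 5 tested (80%), and all 4 were under 1 CPM in both IgG libraries. Of the 12 cumulus or granulosa markers 9 were listed, and they summed to 6.695 and 20.3 CPM in His and 1.01 and 0 CPM in IgG, where Tnfaip6 was the 1 tested and passed as higher (limma adjusted p = 0.0187), from 0 in IgG. Their part in the members' values was not tested.

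Of the other replication genes, 68 of the 69 were listed in this table and 59 were tested. In all, 11 of the 59 passed (18.6%, against 36.6% of all genes). Of these, 9 were higher (35.7% of all genes were) and 2 lower (0.917% of all genes were). Only 8 of the 59 were under 1 CPM in both IgG libraries (13.6%, against 38.2% of all genes). Among the 51 at 1 CPM or more in an IgG library, 1 passed as higher (1.96%, against 5.25%) and 2 as lower (3.92%, against 1.48%). The median log2 fold change of the 59 was 0.64 (0.42 without IgG A). Those lower in His were E2f1, the founding E2F factor, and Chtf18, part of an alternative clamp loader. E2f1 stood at 566 and 486 CPM in His and 1299 and 1365 CPM in IgG (log2 fold change -1.34 ± 0.15, limma adjusted p 0.0107), and Chtf18 at 224 and 188 CPM in His and 522 and 566 CPM in IgG (log2 fold change -1.40 ± 0.31, limma adjusted p 0.0451). In both genes the IgG replicates lie close together and above His. Among the higher ones, Ssrp1, a subunit of the FACT histone chaperone, was at 146 and 78.4 CPM in His and 0.675 and 0 CPM in IgG (log2 fold change 6.38 ± 0.77, limma adjusted p 0.0121). Tfdp1, the dimer partner of E2F factors, was at 99.5 and 64.5 CPM in His and 0 and 0.427 CPM in IgG, a pooled ratio of 437 (121 to 3615; log2 fold change 6.09 ± 0.65, limma adjusted p 0.0103). Mms22l, of fork repair, was at 31.4 and 55.7 CPM in His and 0 and 0.427 CPM in IgG, a pooled ratio of 229 (63.2 to 1897; log2 fold change 5.17 ± 0.60, limma adjusted p 0.0113). These 3 are among the 8 of the 9 higher genes that were under 1 CPM in both IgG libraries, so the filter fixed their direction. edgeR called 0 of the 59 and 0% of all genes. DESeq2 called 19 (against 49.1% of all genes), 13 higher (against 42.4%) and 6 lower (against 6.65%). The median log2 fold change was 0.42 against IgG B alone and 0.76 against IgG A alone. Topbp1, Rrm2b and Dtymk had the lowest log2 fold changes of the list, -2.13, -1.78 and -1.75, and did not pass.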

How the data were processed

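Per the labels' protocols, cDNA of 2-cell embryos was amplified by Smart-seq2, made into Nextera XT libraries and read from both ends. The authors' deposited values are CPM. Trim Galore 0.6.7, FastQC, HISAT2 2.2.1, featureCounts 2.0.1, edgeR and build GRCm39 are named in the submitters' processing notes. The annotation, the strand setting and any gene filter are not given in the sources used here, so reads of overlapping genes may not be separated. CPM values were whole multiples of 1 read (100% within 0.01 reads), which gave reads and totals. The 2 tables were normalized separately and tested separately.

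Of 12 samples, 8 were used. The names of 4 value columns do not decide between input and total RNA samples, so these were not used. limma 3.58.1 in R 4.3.3 was fitted with a mean-variance trend on log2(CPM + 1), a scale that understates changes of low genes, to genes that reached 1 CPM in at least 2 of 4 libraries, with a threshold of 0.05 after Benjamini-Hochberg adjustment over all genes tested, two-sided. edgeR 4.0.16 and DESeq2 1.42.0 were run on the recovered reads. The scripts were run on simulated counts with the same spread in every library. The IgG libraries are unlike that, so this run does not bear on the calls of His against IgG. Promoters came from RefSeq. Values in full were given for members past the threshold (at most the 10 with the smallest p) and the 5 members furthest from 0 in each direction with a mean CPM of at least 10, and from the other replication genes for the 3 furthest in each direction. Chtf18, E2f1 and further members' values were added after their values were seen. The members and lists were chosen with earlier results of these data known.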

Additional observations from a re-analysis of the deposited data

How the results depend on the processing

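In the knockdown comparison, 0 members passed under each alternative except without knockdown A. With 1 library left out the count ran from 0 to 5, and the median log2 fold change of the members ran from -0.56 (without knockdown A) to 0.0253 (without knockdown B, opposite sign). The other medians kept the sign of -0.12.

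In the comparison of His with IgG, the main count was 13. Quantile normalization and edgeR gave 0, DESeq2 gave 20, and leaving out 1 library gave 14 to 34. The median of 2.50 became 3.68 with a pseudocount of 0.1, 1.15 with a pseudocount of 5, 2.805 when genes needed a mean of 5 CPM, 2.22 after median rescaling, 0.596 after quantile normalization, 1.07 in edgeR and 0.85 in DESeq2, and ran from 1.71 to 2.65 with 1 library left out. The all-gene median moved as well, to 1.76 with median rescaling and -0.08 with quantile normalization. The sign turned against the full fit for 9 of 44 members without IgG A (20.5%, against 16.8% of all genes) and for 8 of 44 without IgG B (18.2%, against 16%). Examples are Mcm7 (0.99) and Mcm6 (0.66) without IgG A and Rfc1 (0.89) and Orc1 (0.68) without IgG B. With 1 library left out, Mcm7 ran from -3.61 to 0.99, Mcm6 from -4.13 to 0.66, Rfc1 from -2.44 to 0.89 and Orc1 from -2.45 to 0.68. The cause was not tested. Signs turned for 3 of 44 members with median rescaling and 8 of 44 with quantile normalization, and in the knockdown for 3 and 0 of 45.

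The letters A and B pair no samples by any label. Same-letter deviations correlated at 0.15 (knockdown) and -0.01 (immunoprecipitation). With a replicate block, 0 members passed in the knockdown (median -0.12) and 14 in the immunoprecipitation (31.8%, against 34.7% of all genes; median 2.50), 13 of them shared with the fit without it. Of 10 planned results, 6 were not run, since they rest on input or total RNA. The IgG libraries held 4678563 and 5925209 reads.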
